A study of Mus musculus with 18 samples.

Results

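Gastrocnemius, the large calf muscle, was compared between mice reloaded after disuse and mice that were never unloaded, with Zfp697 knocked out in skeletal muscle (mKO) in both groups. The libraries were chosen by their titles, 3 of mKO muscle at 3 days of reloading and 3 of mKO control muscle, which makes 6 of the 18 libraries of the series. All came from female C57BL/6 mice. The reloaded mice went through hindlimb unloading, in which the hind legs carry no body weight, followed by a return to weight bearing, while control mice lived in ordinary cages. The labels give 10 days for the unloading groups. The same design in flox/flox mice, which carry the floxed gene without the knockout (flox), gave 3 reloading and 3 control libraries and is used only where the knockout is set against it. The labels give neither the Cre driver, the deleted part of the gene nor the age, and a knockout in muscle leaves the gene intact in the other cells of the tissue. Whether each library is 1 animal is not labelled either, so p-values rest on the spread among these libraries, which may be technical.

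Muscle fibres shrink when load is removed and must rebuild when it returns. Reloading stretches sarcomeres that have lost protein, and a known set of genes for Z-disc, titin-binding and chaperone proteins responds to that strain. Macrophages then enter the tissue, satellite cells divide and fuse with fibres, and matrix is laid down. Zfp697 encodes a zinc finger protein. The comparison asks which of these responses were present in knockout muscle at 3 days.

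Polyadenylated RNA was sequenced, and the deposited table holds raw read counts per gene. Total counts in the 6 libraries ran from 45607123 to 51592566. The fibre markers Ckm, Acta1, Myh4, Mb and Ttn together made 112794, 103318 and 124319 CPM (counts scaled to library size, with TMM factors) in mKO reloading, against 92709, 116330 and 103438 CPM in mKO control, so the defining genes of muscle fibre were present. Of 54532 genes, 17833 passed the low-count filter and were tested with edgeR's quasi-likelihood test, with p-values adjusted by the Benjamini-Hochberg method over all of them. A gene was called at an adjusted p under 0.05. Values below are CPM, and changes are log2 fold changes of mKO reloading over mKO control with their standard error (SE).

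In mKO muscle 389 genes were called, 2.18% of those tested, 239 of them higher after reloading (1.34%) and 150 lower (0.841%). The median change was 0.71 among the higher genes and -0.50 among the lower ones, and over all genes tested it was -0.0013. A change of more than 1 on the log2 scale was reached by 73 of the higher and 16 of the lower genes. The CPM ranges of the groups were apart in 388 of the called genes, against 19.9% of all genes tested. The calls rest on the same libraries, so this follows largely from the choice of genes and adds no support. The number of calls depended on single libraries, written R1 to R3 for mKO reloading replicates and C1 to C3 for mKO control replicates wherever a call was lost without them. Without mKO reloading replicate 2 it was 86, without mKO control replicates 1, 2 and 3 it was 142, 156 and 126, and without mKO reloading replicates 1 and 3 it was 391 and 398. Fitted on these 6 libraries alone, without the other groups' estimate of the spread, the test called 136 genes. Of the 389 genes, 65 were called whichever of the 6 libraries was left out, 43 higher and 22 lower. Being called without any 1 library did not mean being called in the smaller fit: Chac1, Gpr137c, Cox8b, Cd68, Smpx and Dysf had an adjusted p of 0.06, 0.0685, 0.0795, 0.0677, 0.0685 and 0.0601 in the fit of these 6 libraries alone.

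The targeted gene, Zfp697 (chromosome 3, 98382461 to 98753812, plus strand; GRCm38 here and below), had 1.6, 1.95 and 1.47 CPM in mKO reloading, against 1.05, 1.31 and 1.25 CPM in mKO control. The ranges were apart, and the change of 0.48 ± 0.26 did not pass (adjusted p = 0.382). Its mKO mean at unloading was 1.66 ± 0.72 CPM (SD, n = 3). In flox it had 2.57 ± 0.23 CPM in reloading and 1.19 ± 0.35 CPM in control (SD, n = 3 each), a change of 1.10 ± 0.26 (adjusted p = 0.00429), and the interaction was -0.62 ± 0.36 (adjusted p = 0.496). Counts were summed over the whole gene and include other cell types, so these levels do not check the knockout.

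The gene list with the most calls was that of sarcomere strain and repair. It holds proteins of the Z-disc, the titin spring and the fibre membrane, and also small heat shock proteins and the nuclear protein Mustn1. Of its 20 genes, 11 rose and 0 fell, against 1.34% and 0.841% of all genes tested, and the list's median change was 0.55. Ranges were apart upwards in 14 of the 20, against 10.0% of all genes. This list and the others below were chosen with earlier results of these data known. Their counts beside the shares of all genes are therefore a description and no independent test. Csrp3 (chromosome 7, 48830398 to 48848033), the muscle LIM protein of the Z-disc, had 368, 611 and 178 CPM in mKO reloading, against 59.7, 75.4 and 73.5 CPM in mKO control. Every reloaded library stood above every control, with replicate 2 highest and replicate 3 lowest. The change was 2.47 ± 0.61 (adjusted p = 0.0406).

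Ankrd2 and Ankrd1 encode ankyrin repeat proteins that bind titin. Ankrd2 (chromosome 19, 42036038 to 42045110) had 248, 473 and 172 CPM in mKO reloading, against 52.1, 50.8 and 65.2 CPM in mKO control, a change of 2.41 ± 0.58 (adjusted p = 0.0369). Ankrd1 (chromosome 19, 36111965 to 36119844, minus strand) had 44.4, 80.8 and 22.8 CPM in mKO reloading, against 9.4, 7.16 and 13 CPM in mKO control. Its change was 2.33 ± 0.38 (adjusted p = 0.00624). Both were highest in replicate 2 and lowest in replicate 3, and neither overlapped with control. The promoter of Ankrd1, 250 bases before to 50 after the RefSeq start on GRCm38.p6 (chr19:36119795-36120094, minus strand), is shown 5′ to 3′ because Ankrd1 rose in every reloaded library. Capitals mark CATTCC, the core of the element bound by TEAD factors, on either strand.
Ankrd1: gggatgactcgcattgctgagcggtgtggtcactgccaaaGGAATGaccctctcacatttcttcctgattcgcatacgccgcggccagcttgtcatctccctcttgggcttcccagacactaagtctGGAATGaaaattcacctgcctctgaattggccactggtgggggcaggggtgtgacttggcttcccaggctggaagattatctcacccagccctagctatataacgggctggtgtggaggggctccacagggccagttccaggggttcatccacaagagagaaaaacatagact
This window holds 2 copies, both in the reverse orientation. At least 1 copy stands in 14.7% of the 32851 RefSeq promoters of this length. Counted by gene, over all entries of each, 4 of the 9 called strain genes with an entry hold one, against 16.6% of 27025 genes. A match describes the sequence and is no sign of binding.

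Xirp1, the actin-binding Xin protein, had 203, 457 and 166 CPM in mKO reloading, against 66.7, 77.3 and 113 CPM in mKO control, a change of 1.69 ± 0.41 (adjusted p = 0.0402). Mustn1, a small nuclear protein of muscle and bone, had 176, 158 and 60 CPM in mKO reloading, against 40.1, 31.7 and 50.1 CPM in mKO control, a change of 1.69 ± 0.29 (adjusted p = 0.00678). Here replicate 3 lay close to the controls. The small heat shock proteins of muscle rose too. Hspb7 reached 1065, 1314 and 653 CPM in mKO reloading, against 307, 323 and 412 CPM in mKO control, a change of 1.54 ± 0.36 (adjusted p = 0.0329). Cryab, which guards desmin and titin from aggregation, reached 1442, 1223 and 814 CPM, against 436, 509 and 551 CPM in mKO control (1.22 ± 0.26, adjusted p = 0.0206).

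The remaining members that rose were Fhl1, a LIM protein (1.23 ± 0.25), Flnc, the Z-disc filamin (1.08 ± 0.27), Dysf, the membrane repair protein dysferlin (0.56 ± 0.09), and Smpx, a small muscle protein (0.49 ± 0.09). Their adjusted p-values were 0.0181, 0.0451, 0.00656 and 0.00779. All 20 members had a positive change, and desmin itself (Des) had 2924, 2663 and 2503 CPM in mKO reloading, against 2398, 2425 and 2558 CPM in mKO control, ranges that overlapped. Ankrd1, Mustn1, Dysf and Smpx were called in all 6 fits that left out 1 library. The other 7 were lost without R2, C1 or C2, 6 of them also without C3 (all but Fhl1), and Csrp3, Hspb7 and Cryab also without R1, with adjusted p up to 0.262. The number of members called was 4 without mKO reloading replicate 2, 4, 4 and 5 without mKO control replicates 1, 2 and 3, 9 and 12 without mKO reloading replicates 1 and 3, 7 in the fit of these 6 libraries alone and 6 with limma's sample weights.

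Outside that list, other contractile and chaperone genes rose. They were picked after their values were seen. Actn2, the α-actinin of the Z-disc, had 1930, 1808 and 1333 CPM in mKO reloading, against 645, 809 and 885 CPM in mKO control (1.12 ± 0.26, adjusted p = 0.0301, up to 0.13 without R1, R2 or any 1 control). Hspb6 had 1605, 1512 and 1333 CPM, against 578, 697 and 684 CPM in mKO control (1.18 ± 0.21, adjusted p = 0.00779). Lmod3, the thin-filament nucleator leiomodin, had 235, 252 and 228 CPM, against 147, 137 and 158 CPM in mKO control (0.69 ± 0.11, adjusted p = 0.00522). For Hspb6 and Lmod3 the call held in all 6 fits without 1 library. Among the cytosolic heat shock chaperones 1 of 12 rose, against 1.34% of all genes tested. This was Hspb1, with 136, 219 and 83.3 CPM in mKO reloading, against 54.9, 58.4 and 64.9 CPM in mKO control (1.30 ± 0.27, adjusted p = 0.0184). It was lost without R2 or any 1 control (adjusted p up to 0.125). The abundant Hsp90ab1 had 1411, 1211 and 1180 CPM, against 1114, 1242 and 1202 CPM in mKO control, and did not pass.

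**Figure D1:**
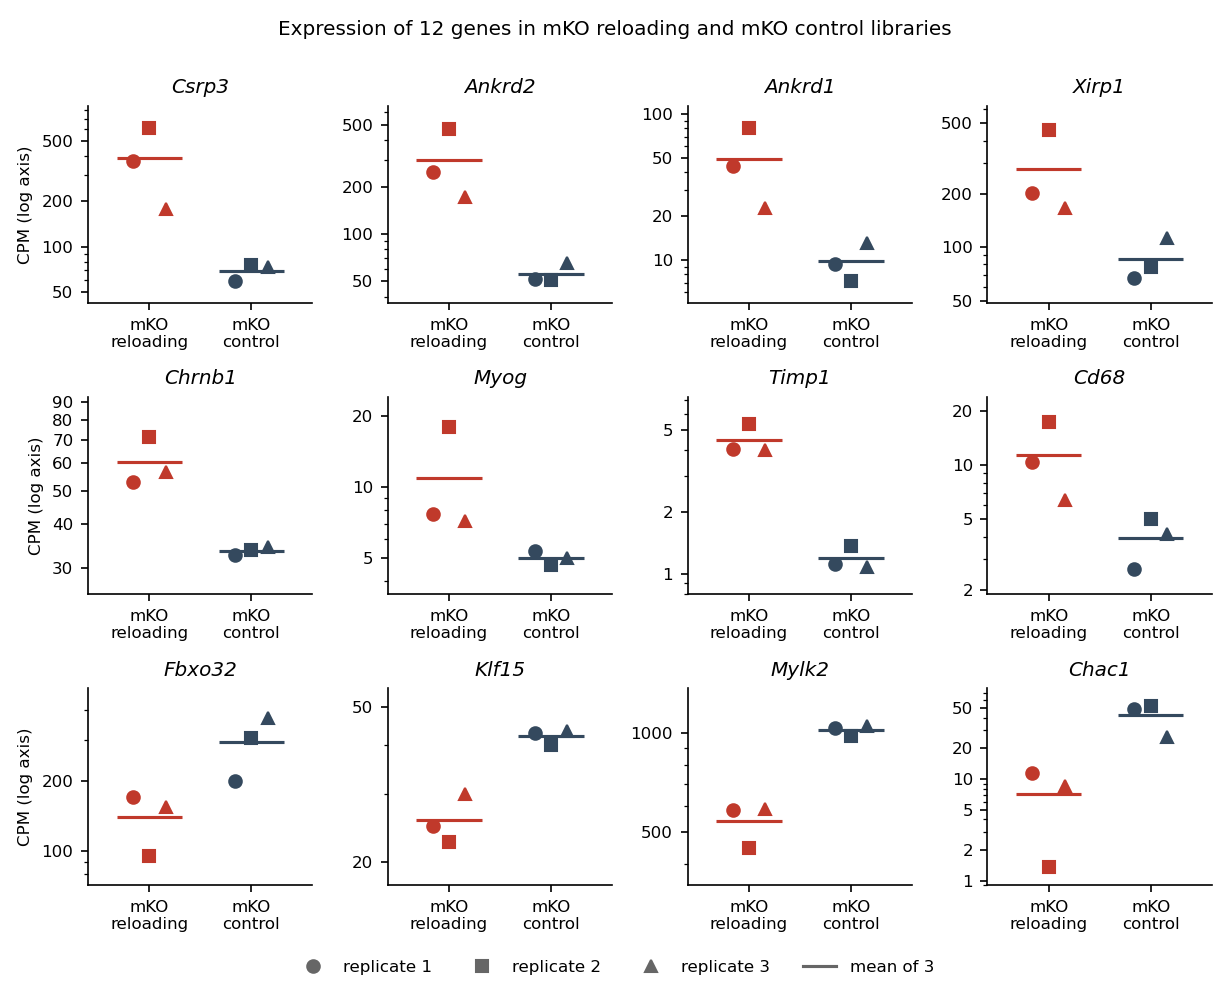
CPM of 12 genes, on log axes, in the 3 mKO reloading libraries (red, left) and the 3 mKO control libraries (dark, right), with a symbol for each replicate number and a line at the group mean. Replicate 2 of mKO reloading is the highest of its group in all 8 genes that rose, for example 457 CPM for Xirp1, and the lowest in the 4 genes that fell, for example 1.35 CPM for Chac1.

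Of the acetylcholine receptor genes, Chrng and Chrnb1 rose, while Chrna1 and Chrne did not pass. RNA of whole muscle does not show whether the rise was at the nerve-muscle contact. The receptor exchanges its fetal γ subunit for an adult one after birth, and denervated or regenerating fibres make the fetal subunit again. Chrng (chromosome 1, 87204657 to 87212694), the γ subunit, had 22, 12 and 22 counts in mKO reloading, against 0, 2 and 1 counts in mKO control. Relative to library size, the summed counts were 18.6 times higher (95% exact interval 6.04 to 92.8, for counting error only, and too narrow if read mates were counted separately), and edgeR called the gene (adjusted p = 0.00806). All 3 reloaded libraries stood above the controls, at a level near the limit of detection. Chrnb1 (chromosome 11, 69784036 to 69795943, minus strand), the β subunit, had 52.8, 71.5 and 56.4 CPM in mKO reloading, against 32.7, 33.7 and 34.3 CPM in mKO control (0.84 ± 0.14, adjusted p = 0.00624). Myog (chromosome 1, 134289989 to 134292548), the myogenic factor myogenin, had 7.7, 18.1 and 7.19 CPM, against 5.36, 4.69 and 4.99 CPM in mKO control (1.14 ± 0.27, adjusted p = 0.0323).

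Myogenin binds E-boxes, CANNTG, in muscle promoters, so the promoters of these 3 genes are shown, 5′ to 3′, with E-boxes in capitals. They are RefSeq sequences of GRCm38.p6, 250 bases before to 50 after each start: Chrng at chr1:87205561-87205860 (plus strand), Chrnb1 at chr11:69795888-69796187 (minus strand) and Myog at chr1:134289754-134290053 (plus strand).
Chrng: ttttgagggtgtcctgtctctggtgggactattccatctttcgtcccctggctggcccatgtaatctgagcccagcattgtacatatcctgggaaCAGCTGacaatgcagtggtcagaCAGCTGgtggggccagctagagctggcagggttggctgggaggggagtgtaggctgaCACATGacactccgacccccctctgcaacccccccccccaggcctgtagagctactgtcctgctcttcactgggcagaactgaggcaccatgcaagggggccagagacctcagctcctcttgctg
Chrnb1: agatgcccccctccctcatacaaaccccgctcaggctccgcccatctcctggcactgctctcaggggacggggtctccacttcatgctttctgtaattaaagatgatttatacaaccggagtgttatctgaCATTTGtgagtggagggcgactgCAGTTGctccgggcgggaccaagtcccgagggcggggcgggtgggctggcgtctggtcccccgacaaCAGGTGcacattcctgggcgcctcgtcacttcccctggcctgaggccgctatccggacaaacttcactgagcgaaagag
Myog: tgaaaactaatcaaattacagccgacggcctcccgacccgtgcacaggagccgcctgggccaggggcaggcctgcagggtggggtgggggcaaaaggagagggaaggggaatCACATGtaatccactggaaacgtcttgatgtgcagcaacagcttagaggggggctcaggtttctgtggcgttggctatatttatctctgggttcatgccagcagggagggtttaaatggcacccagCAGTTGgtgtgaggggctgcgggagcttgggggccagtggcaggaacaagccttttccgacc
The windows hold 3, 3 and 2 E-boxes, a motif that reads the same on both strands. At least 1 stands in 72.3% of the 32851 promoters of this length, so its presence in all 3 is a description of the sequence and no sign of binding.

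Of the 20 genes of the neuromuscular junction and denervation list these 3 rose and 1 fell, Gadd45a, a growth arrest gene induced by denervation, with 16.7, 14.9 and 15.2 CPM in mKO reloading, against 26.4, 21.4 and 19.6 CPM in mKO control (-0.52 ± 0.11, adjusted p = 0.0184). Of all genes tested 1.34% were called higher and 0.841% lower. The list's median change was 0.31. Chrna1, the α subunit, had 29.8, 26.7 and 29 CPM, against 17.8, 23.6 and 21.1 CPM in mKO control, ranges that were apart, and its change of 0.45 ± 0.13 did not pass (adjusted p = 0.0695). The adult Chrne had 15.4, 18.1 and 21 CPM, against 14.7, 13.5 and 13.5 CPM in mKO control, and did not pass. Chrng and Chrnb1 were called without any 1 library. Myog was lost without R2 or any 1 control (adjusted p up to 0.191), and Gadd45a without R2 or C1 (adjusted p up to 0.1).

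Some genes of new fibre formation rose, at low levels. Of the 16 genes of myogenic regulation and regeneration 3 rose and 0 fell, against 1.34% and 0.841% of all genes tested. The 3 were Myog, Mymk and Myh3, and the list median was 0.15. Mymk, the fusion protein myomaker, had 1.05, 1.17 and 0.697 CPM in mKO reloading, against 0.215, 0.201 and 0.169 CPM in mKO control (2.31 ± 0.48, adjusted p = 0.019). Myh3, the embryonic myosin heavy chain, had 18.4, 37.5 and 19.9 CPM, against 6.65, 4.65 and 9.08 CPM in mKO control (1.90 ± 0.44, adjusted p = 0.031). The satellite cell factor Pax7 had 4.89, 4.76 and 6.21 CPM, against 5.58, 4.69 and 4.91 CPM in mKO control, so the groups overlapped. Mymk and Myh3 were both lost without R2 or any 1 control (adjusted p up to 0.0948 and 0.174). Actc1, the cardiac and fetal actin, had 2044, 2634 and 2797 CPM, against 762, 981 and 541 CPM in mKO control, and did not pass in the fit of all groups (1.71 ± 0.54, adjusted p = 0.103).

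Calls among contractile and calcium genes of adult fibres were single genes. Over all genes tested, 1.34% were called higher and 0.841% lower, so single calls say little about a list. Of 13 fast-fibre genes edgeR and DESeq2 called 0, with 3 at an unadjusted p under 0.05 and a median of 0.01. Myh4, the fastest myosin heavy chain, averaged 52904 ± 7469 CPM in mKO reloading and 50613 ± 6040 CPM in mKO control (SD, n = 3 each). Of 10 slow-fibre genes 1 rose, Casq2, the slow and cardiac calsequestrin, with 154, 132 and 104 CPM, against 44.1, 67.3 and 54.9 CPM in mKO control (1.23 ± 0.26, adjusted p = 0.0184, up to 0.0976 without R1, R2, C1 or C3). Slow myosin Myh7 had 430, 191 and 304 CPM, against 300, 274 and 394 CPM in mKO control. In the slow-fibre list replicate 2 of mKO reloading went below control, with a median of -0.52, while replicates 1 and 3 had 0.65 and 0.15. Among 19 genes of calcium handling Cacnb1, the β subunit of the voltage sensor, rose, with 228, 248 and 243 CPM, against 196, 193 and 182 CPM in mKO control (0.33 ± 0.07, adjusted p = 0.0199, up to 0.095 without R2 or any 1 control).

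Of 28 genes of the actin cytoskeleton, tubulins and serum response factor targets 4 rose and 0 fell, with a median of 0.27. Over all genes tested the shares were 1.34% and 0.841%. The tubulin gene Tubb6 had 30.1, 39.8 and 23.8 CPM in mKO reloading, against 16.9, 18.1 and 15.9 CPM in mKO control (0.88 ± 0.15, adjusted p = 0.00779), and Tubb5 had 66.5, 85.4 and 60.6 CPM, against 41.8, 44.5 and 45.9 CPM (0.68 ± 0.11, adjusted p = 0.00522). Both held without any 1 library. The actin-severing protein Cfl1 rose by 0.41 ± 0.10 (adjusted p = 0.0382) and vinculin, Vcl, by 0.37 ± 0.09 (adjusted p = 0.0374), and both were lost without R2, C1 or C3, Cfl1 also without R1 or C2 and Vcl also without R3 (adjusted p up to 0.207 for each). Egr1, an immediate early transcription factor, was the only 1 of 23 such genes called, and it rose, against 1.34% of all genes tested. It had 23.6, 48.8 and 28.7 CPM, against 6.57, 17.1 and 8.3 CPM in mKO control (1.66 ± 0.34, adjusted p = 0.0157, up to 0.102 without R2, C1 or C3). Of 12 genes of polyamine synthesis and control 1 rose, against the same 1.34%. This was Azin1, which protects ornithine decarboxylase, with 90.1, 115 and 90.9 CPM, against 58.8, 62.1 and 60.4 CPM in mKO control (0.71 ± 0.17, adjusted p = 0.0341, up to 0.186 without R2 or any 1 control).

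Some genes that drive loss of muscle protein fell. Of the 20 genes of atrophy and FoxO targets 3 fell and 0 rose, against 0.841% and 1.34% of all genes tested. The median was -0.26, and the ranges were apart downwards in 11, against 9.84% of all genes tested. Fbxo32 (chromosome 15, 58175879 to 58214932), the ubiquitin ligase atrogin-1, had 170, 95.6 and 155 CPM in mKO reloading, against 200, 304 and 372 CPM in mKO control (-1.06 ± 0.24, adjusted p = 0.0272). Klf15 (chromosome 6, 90462576 to 90475238), a transcription factor induced by glucocorticoids and fasting, had 24.7, 22.5 and 29.9 CPM, against 42.8, 40 and 43.3 CPM in mKO control (-0.71 ± 0.10, adjusted p = 0.00186). Map1lc3b, the autophagosome protein LC3B, had 137, 105 and 138 CPM, against 169, 168 and 159 CPM in mKO control (-0.38 ± 0.09, adjusted p = 0.0337). Klf15 was called in all 6 fits without 1 library, while Fbxo32 and Map1lc3b were lost without R2, C2 or C3, and Map1lc3b also without C1 (adjusted p up to 0.144 for each). Trim63, the ligase MuRF1, had 190, 201 and 200 CPM, against 229, 221 and 219 CPM in mKO control, and did not pass.

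Autophagy and FoxO genes outside the list, picked after their values were seen, fell as well. Foxo4 had 156, 154 and 170 CPM in mKO reloading, against 245, 215 and 225 CPM in mKO control (-0.51 ± 0.09, adjusted p = 0.00912). Pink1, the kinase that marks damaged mitochondria, had 573, 546 and 614 CPM, against 888, 859 and 826 CPM in mKO control (-0.57 ± 0.09, adjusted p = 0.00551). Ulk1, the kinase that starts autophagy, had 61.1, 53 and 60.2 CPM, against 84.1, 74.8 and 84.7 CPM in mKO control (-0.48 ± 0.10, adjusted p = 0.0184, up to 0.111 without R2, C1 or C3). Pik3ip1, an inhibitor of PI3 kinase, had 30.1, 21.6 and 35.8 CPM, against 64.8, 49.2 and 62.3 CPM in mKO control (-1.01 ± 0.16, adjusted p = 0.00573). Foxo4, Pink1 and Pik3ip1 were called without any 1 library. Of 29 proteasome genes edgeR called 0, against 2.18% of all genes tested. Of them 5 had an unadjusted p under 0.05, DESeq2 called 1, and the median was -0.08.

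Levels at unloading show where these genes stood between the stages. For Fbxo32 the mKO mean was 292 ± 86.9 CPM in control, 303 ± 15.1 in unloading and 140 ± 39.2 in reloading (SD, n = 3 each). Ankrd1, Csrp3 and Mylk2, the myosin light chain kinase of skeletal muscle, had unloading means of 20.1 ± 5.22, 115 ± 73.3 and 1400 ± 214 CPM. Mylk2 (chromosome 2, 152911352 to 152923068) had 585, 448 and 587 CPM in mKO reloading, against 1042, 982 and 1054 CPM in mKO control (-0.93 ± 0.12, adjusted p = 0.00186), and was called without any 1 library.

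Calls among genes of energy metabolism were single genes or pairs, where 2.18% of all genes tested were called in either direction. Of 48 nuclear genes of oxidative phosphorylation 2 fell and 0 rose, against 0.841% and 1.34% of all genes tested. Both were of cytochrome oxidase. Cox8b had 140, 102 and 127 CPM in mKO reloading, against 182, 171 and 168 CPM in mKO control (-0.50 ± 0.09, adjusted p = 0.00959), and Cox6c had 297, 229 and 277 CPM, against 397, 321 and 332 CPM (-0.39 ± 0.10, adjusted p = 0.0424, up to 0.207 without R2, R3 or any 1 control). The list's median was -0.07. Of the 13 mitochondrially encoded genes and the 30 genes of the TCA cycle and fat oxidation edgeR called 0, with 6 and 1 at an unadjusted p under 0.05, and DESeq2 called 1 in each list. Their medians were -0.34 and -0.09. Mitochondrial genes took 9.75%, 7.67% and 9.3% of counts in mKO reloading, against 11.6%, 9.82% and 11.8% in mKO control, ranges that were apart by a small margin. Of 27 glycolysis and glycogen genes 1 rose and 1 fell, against 1.34% and 0.841% of all genes tested. Eno1, enolase, rose (0.48 ± 0.11, adjusted p = 0.0333) and Phka1, a subunit of phosphorylase kinase, fell (-0.47 ± 0.12, adjusted p = 0.0457). Eno1 was lost without R1, R3, C1 or C3 (adjusted p up to 0.139) and Phka1 without any of the 6 (up to 0.207).

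Among the other large rises, Slc6a19 (chromosome 13, 73679745 to 73704865, minus strand), a transporter of neutral amino acids best known from gut and kidney, had 1.81, 5.36 and 1.07 CPM in mKO reloading, against 0.129, 0.161 and 0.127 CPM in mKO control (4.28 ± 0.58, adjusted p = 0.00186). Tnfrsf12a (chromosome 17, 23675445 to 23677468), the TWEAK receptor Fn14, had 21.9, 111 and 20.1 CPM, against 5.88, 5.19 and 8.68 CPM in mKO control (2.96 ± 0.70, adjusted p = 0.0348). Igf2bp2, an RNA-binding protein active in growing muscle, had 3.54, 12.8 and 2.07 CPM, against 1.24, 1.33 and 1.23 CPM in mKO control (2.28 ± 0.56, adjusted p = 0.0389). For these 3 genes replicate 2 was several times above the other reloaded libraries. Tnfrsf12a and Igf2bp2 were lost without R2 or any 1 control (adjusted p up to 0.258 and 0.313), while Slc6a19 was called without any 1 library.

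Steadier rises came from Fbxl22, an F-box protein of the sarcomere, with 16.4, 28.8 and 15.8 CPM in mKO reloading, against 6.48, 4.36 and 5.14 CPM in mKO control (1.93 ± 0.24). Myl6b, a myosin light chain, had 37.6, 27.1 and 22.5 CPM, against 7.64, 7.98 and 6.52 CPM in mKO control (1.98 ± 0.27). Kcnf1, a modulatory subunit of potassium channels, had 4.0, 7.6 and 5.47 CPM, against 1.63, 1.27 and 1.48 CPM in mKO control (1.96 ± 0.27). All 3 had an adjusted p of 0.00186, the smallest reached in this comparison, and were called in every fit without 1 library. Another gene with that adjusted p was 2310020H05Rik, which rose by 1.24 ± 0.15. The X-linked Tceal7 (2.02 ± 0.35, adjusted p = 0.00779) and Hectd2os (1.70 ± 0.31, adjusted p = 0.00828) were called in all 6 as well, with a wider spread. Tceal7 had 63.6, 244 and 133 CPM in mKO reloading, against 48.6, 28.7 and 31.4 CPM in mKO control. Hectd2os had 19, 38.1 and 14.5 CPM, against 6.87, 7.08 and 8.04 CPM in mKO control. Both were highest in replicate 2. Hectd2os is named for the opposite strand of Hectd2, and the counting recorded no strand option, so its reads cannot be assigned with certainty. Spsb4 (1.94 ± 0.40) and the protease gene Adamts8 (1.91 ± 0.44) had an adjusted p of 0.0176 and 0.0301. Spsb4 was lost without R2, C1 or C2 (adjusted p up to 0.102) and Adamts8 without R3 or any 1 control (up to 0.119). Opn1mw, an opsin gene chosen after its values were seen, had 55, 28 and 10 counts in mKO reloading, against 1, 0 and 2 counts in mKO control, a ratio relative to library size of 30.8 (95% exact interval 10.2 to 152).

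The largest falls included Chac1, an enzyme that degrades glutathione and a target of ATF4. It had 11.4, 1.35 and 8.44 CPM in mKO reloading, against 49, 51.9 and 25.8 CPM in mKO control (-2.60 ± 0.50, adjusted p = 0.011), and was called without any 1 library. It was the only 1 of 25 ATF4 and unfolded protein genes called, against 2.18% of all genes tested, and the list's median was 0.14. Htra4, a serine protease, had 3.15, 0.398 and 0.737 CPM, against 11.3, 7.6 and 4.27 CPM in mKO control (-2.46 ± 0.49, adjusted p = 0.0134). The phospholipase genes Pla2g5 and Pla2g7 had changes of -1.46 ± 0.27 and -1.06 ± 0.26 (adjusted p = 0.00912 and 0.0406). Htra4 was lost without R2 or C1 (adjusted p up to 0.0679) and Pla2g7 without R2, R3 or any 1 control (up to 0.207).

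Srp54b, a copy of the signal recognition particle gene, had 1.67, 1.0 and 1.35 CPM in mKO reloading, against 10.3, 8.55 and 11 CPM in mKO control (-2.90 ± 0.55, adjusted p = 0.0107, and 0.08 without mKO reloading replicate 2). Its near copies Srp54a and Srp54c had 3.61, 6.31 and 5.47 CPM and 15.1, 13.6 and 12.6 CPM in mKO reloading, against 5.43, 3.62 and 6.39 CPM and 14.5, 14.6 and 13.7 CPM in mKO control. Reads may be split between such copies, so the value of Srp54b is uncertain. Further genes among the falls were Gpr137c (-1.21 ± 0.23), Nqo1, a quinone reductase (-0.86 ± 0.12), Gpcpd1, a phosphodiesterase of glycerophosphocholine (-0.89 ± 0.12), Acyp1 (-0.65 ± 0.09) and Smpdl3a (-0.54 ± 0.08), called in all 6 fits without 1 library. Their adjusted p-values ran from 0.00186 to 0.0103. Epop, Klhl38 and Prtg had changes of -1.35 ± 0.31, -1.08 ± 0.24 and -0.94 ± 0.22 (adjusted p = 0.031, 0.0272 and 0.031). Epop and Prtg were lost without R1, R2 or any 1 control, and Klhl38 without R2, C2 or C3 (adjusted p up to 0.164).

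The matrix gave 1 rise and 1 fall among 34 genes, against 1.34% and 0.841% of all genes tested, with a median of 0.24. Timp1 (chromosome X, 20870166 to 20874735), the metalloproteinase inhibitor, had 4.04, 5.34 and 4.02 CPM in mKO reloading, against 1.12, 1.37 and 1.08 CPM in mKO control (1.91 ± 0.31, adjusted p = 0.00573), and was called without any 1 library. Ccn2, a matricellular growth factor, had 10.9, 14.4 and 19.4 CPM, against 23, 50.6 and 25.6 CPM in mKO control (-1.15 ± 0.26, adjusted p = 0.0276, up to 0.123 without R1, R2 or C2). Its relative Ccn5 had a change of -0.92 ± 0.20 (adjusted p = 0.0226, up to 0.0999 without R2, R3 or any 1 control). Cthrc1, a secreted collagen repeat protein chosen after its values were seen, had 1.35, 1.95 and 1.35 CPM, against 0.622, 0.483 and 0.72 CPM in mKO control (1.35 ± 0.28, adjusted p = 0.0192, up to 0.116 without R2, C1 or C2). Postn, the matrix protein periostin, had 71.8, 77.6 and 58.5 CPM, against 30.3, 41.9 and 26.8 CPM in mKO control, ranges that were apart, and did not pass (1.07 ± 0.29, adjusted p = 0.0644). The collagen gene Col1a1 had 552, 660 and 529 CPM, against 387, 502 and 560 CPM in mKO control, ranges that overlapped.

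Cell cycle genes had the highest median of any list, 0.71, at low levels. Of the 32, 3 rose and 0 fell, against 1.34% and 0.841% of all genes tested. Ccna2, cyclin A2, had 2.01, 1.53 and 0.983 CPM in mKO reloading, against 0.515, 0.704 and 0.571 CPM in mKO control (1.33 ± 0.28, adjusted p = 0.0192). The mitotic kinesins Kif11 and Kif23 rose by 1.41 ± 0.35 and 1.16 ± 0.29 (adjusted p = 0.0406 and 0.0426). The proliferation marker Mki67 had 7.06, 5.7 and 5.31 CPM, against 1.67, 2.82 and 2.12 CPM in mKO control, ranges that were apart, and did not pass (1.45 ± 0.38, adjusted p = 0.0542). All 3 calls were lost without R2, C1 or C3, Ccna2 and Kif11 also without R1 and Kif11 and Kif23 also without C2 (adjusted p up to 0.09, 0.238 and 0.241 for Ccna2, Kif11 and Kif23). Ranges were apart upwards in 19 of the 32, against 10.0% of all genes. Foxm1 and Uhrf1, regulators of mitosis and of DNA methylation upkeep chosen after their values were seen, rose by 1.39 ± 0.35 and 1.41 ± 0.30 (adjusted p = 0.043 and 0.0202). Foxm1 was lost without any 1 library but C2 (adjusted p up to 0.16) and Uhrf1 without R2, C1 or C3 (up to 0.0897).

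Counts of called markers of the other cells of muscle stand beside 1.34% of all genes tested called higher and 0.841% called lower. Single calls in lists of this size are no result about a cell type. In bulk tissue, fewer cells of a type and less RNA per cell cannot be told apart. Of 26 macrophage and monocyte markers 1 rose, Cd68, with 10.4, 17.5 and 6.41 CPM in mKO reloading, against 2.62, 5.03 and 4.13 CPM in mKO control (1.54 ± 0.27, adjusted p = 0.00779), and was called without any 1 library. The list's median was 0.04, and its members summed to 524 to 599 CPM in mKO reloading, against 481 to 615 CPM in mKO control. The defining Adgre1 had 5.74, 6.57 and 4.86 CPM, against 3.48, 6.42 and 7.72 CPM in mKO control. No other macrophage marker passed. Of 10 neutrophil and 14 lymphocyte markers 6 and 7 passed the filter, edgeR and DESeq2 called 0, 1 and 0 had an unadjusted p under 0.05, and Ly6g had no count in these libraries. Their sums were 1.97 to 2.75 and 1.48 to 2.58 CPM in mKO reloading, against 1.97 to 3.8 and 2.0 to 2.71 CPM in mKO control.

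Kdr, a VEGF receptor, was the 1 of 12 endothelial markers called (0.55 ± 0.14, adjusted p = 0.0435), against 2.18% of all genes tested. It lost its call without any single library (adjusted p 0.0503 to 0.213). Itga7, the integrin of satellite cells and of fibres, had 135, 170 and 122 CPM in mKO reloading, against 78.2, 95.3 and 91.4 CPM in mKO control (0.69 ± 0.12, adjusted p = 0.00779), and was called without any 1 library. Of the markers of smooth muscle, fibro-adipogenic progenitors, tendon, Schwann cells, fat and red cells, 10, 13, 11, 12, 8 and 6 were tested and edgeR called 0, with 1, 5, 1, 0, 1 and 1 at an unadjusted p under 0.05. DESeq2 called 1, of smooth muscle. The fat markers summed to 613, 684 and 494 CPM in mKO reloading, against 719, 691 and 741 CPM in mKO control, with a median of -0.45. The part of fat content in the results above was not tested. Apoe, a lipid carrier chosen after its values were seen, had a change of -0.73 ± 0.19 (adjusted p = 0.0462, up to 0.153 without R1, R2, R3, C1 or C3). Of 32 interferon response genes and of 26 cytokines and chemokines tested (of 32) edgeR called 0, with 4 and 7 at an unadjusted p under 0.05, and DESeq2 called 0 and 2. Their medians were 0.04 and 0.05. Oas3, an interferon-induced gene outside that list chosen after its values were seen, had 0.388, 0.455 and 0.246 CPM in mKO reloading, against 0.129, 0.0804 and 0.0423 CPM in mKO control (2.09 ± 0.50, adjusted p = 0.0356, up to 0.164 without R1, R2 or any 1 control). Its level was low in every library, and the fit of these 6 libraries alone did not call it (adjusted p = 0.125).

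**Figure D2:**
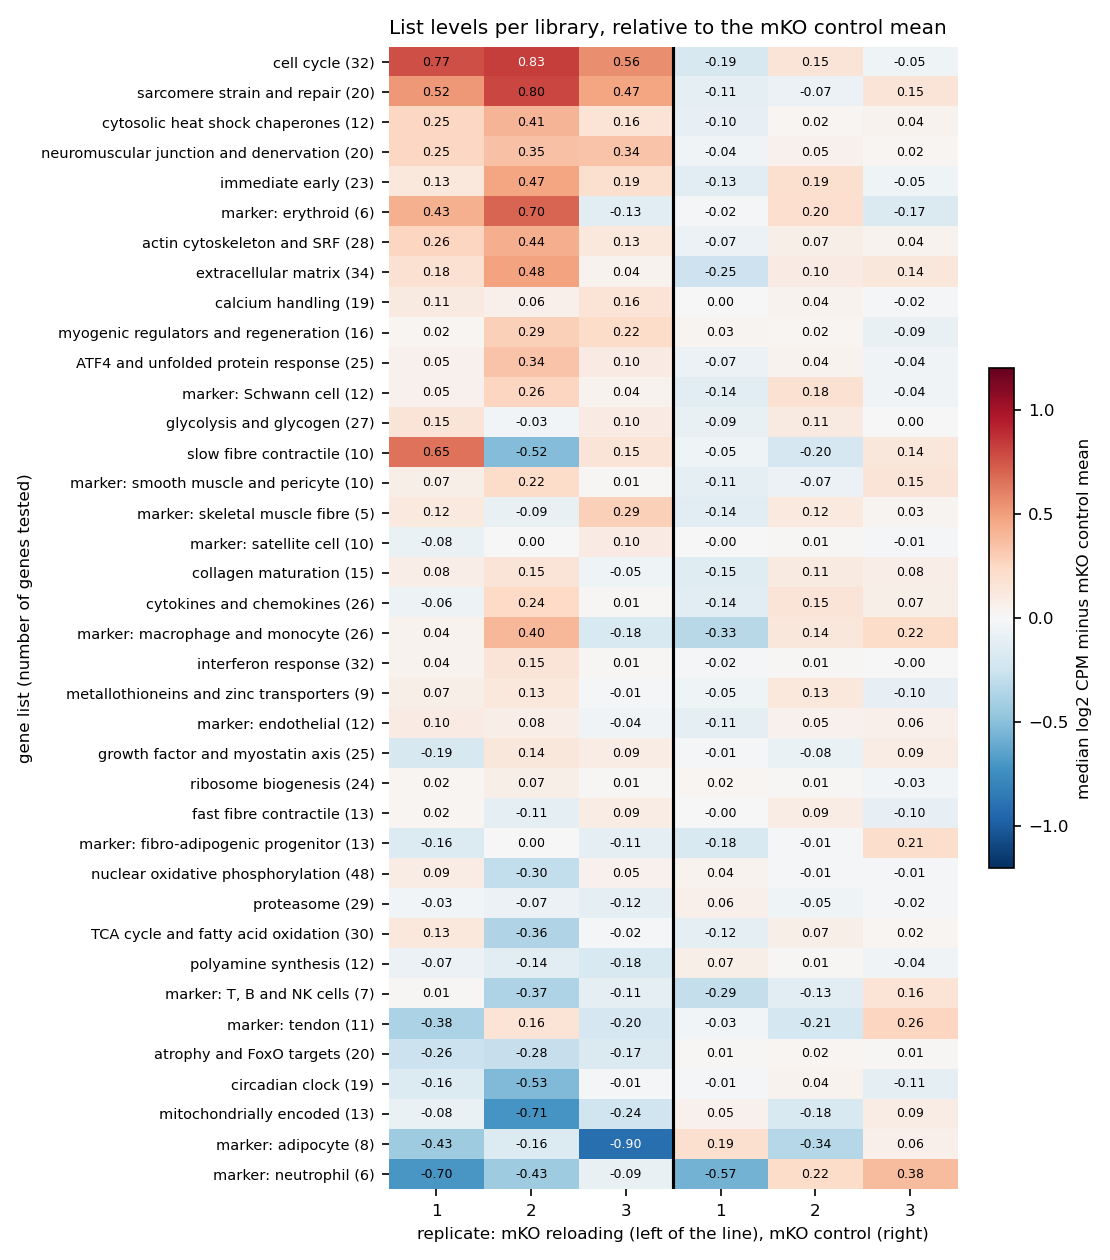
Heat map of 38 gene lists (rows, with the number of genes tested) in the 3 mKO reloading libraries (left of the line) and the 3 mKO control libraries (right). Each cell gives the list's median of log2 CPM minus the mKO control mean. The strain list reads 0.52, 0.80 and 0.47 in mKO reloading, and replicate 2 stands lowest for mitochondrially encoded genes at -0.71.

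The knockout was set against flox muscle, with which it shares no library, to see where the response to reloading differed. Reloading against control called 4035 genes in flox, 22.6% of those tested, 12.3% higher and 10.3% lower. Of the 389 mKO calls 325 were called in flox in the same direction and 0 in the opposite one, which is 83.5% of the mKO calls and 8.05% of the flox calls. Of the other 64, 53 had the same sign. The higher and lower mKO calls had medians of 0.71 and -0.50 in mKO, against 0.73 and -0.64 in flox. The 2193 genes called higher in flox had a median of 0.24 in mKO and 0.75 in flox, and the 1842 called lower had -0.20 in mKO and -0.46 in flox. Genes chosen in flox are selected for a large value there, so these medians are a description.

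The difference itself was tested as an interaction, the mKO change minus the flox change. It called 93 genes, 0.522% of those tested. The change was lower in mKO for 89 (0.499%) and higher for 4 (0.0224%). Of the 89, 88 were called higher in flox, and their median change was 0.20 in mKO and 1.6 in flox. Genes chosen by a negative difference tend to be low in mKO and high in flox, so these values are a description. Only 11 of the 389 mKO calls had a called difference. The number of calls rested on single libraries: it was 0 without flox reloading replicate 1, and 4 to 12 without any 1 of R1, R3, C2, C3, flox reloading replicate 2 or the 3 flox controls. It was 120 without C1, 131 without flox reloading replicate 3 and 469 without R2.

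Of 32 cell cycle genes 12 had a called difference, all lower in mKO. Cenpf, a kinetochore protein, had 0.946 ± 0.256 CPM in mKO reloading and 0.441 ± 0.219 CPM in mKO control, and 4.81 ± 0.751 CPM in flox reloading and 0.168 ± 0.0718 CPM in flox control (SD, n = 3 each). Its interaction was -3.73 ± 0.65 (adjusted p = 0.0276). For Ccna2, which was called in both genotypes, the change was 1.33 ± 0.28 in mKO and 4.06 ± 0.29 in flox, with an interaction of -2.73 ± 0.41 (adjusted p = 0.0129). In flox 30 of the 32 rose, against 12.3% of all genes tested, with a median of 2.46. Kif23 (-2.13 ± 0.41, adjusted p = 0.0342), Ccnb1 (-3.67 ± 0.73, adjusted p = 0.0345) and Ncapg, a condensin subunit (-3.42 ± 0.64, adjusted p = 0.0342), differed in the same direction. In both genotypes the control levels of these genes were below 1 CPM.

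Macrophage, matrix, interferon and cytokine lists each held 1 to 3 called differences, against 0.522% of all genes tested. So did lists of the actin cytoskeleton (3 of 28), neuromuscular junction (1 of 20), myogenic regulation (1 of 16) and growth factors with myostatin (1 of 25). In flox 12.3% of all genes tested were called higher. Of the macrophage markers 3 of 26 had a called difference, all lower in mKO, while 21 rose in flox, with medians of 0.04 in mKO and 1.31 in flox. For Cd68 the change was 1.54 ± 0.27 in mKO and 3.20 ± 0.28 in flox, and the difference of -1.66 ± 0.38 did not pass (adjusted p = 0.0551). Of the matrix genes 3 of 34 differed, with 24 called in flox. For Timp1 the levels were 4.47 ± 0.758 CPM in mKO reloading and 1.19 ± 0.157 CPM in mKO control, and 11.1 ± 1.85 CPM in flox reloading and 0.691 ± 0.092 CPM in flox control (SD, n = 3 each; interaction -2.09 ± 0.45, adjusted p = 0.0452). Of interferon genes and of cytokines 1 differed in each list, with 21 and 15 called in flox. The cytokine was Ccl8, a monocyte attractant, with a change of -0.03 ± 0.50 in mKO and 3.55 ± 0.54 in flox (interaction -3.57 ± 0.74, adjusted p = 0.038).

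No gene of the strain list had a called difference (edgeR). Of its 20 genes 11 rose in mKO and 14 in flox, against 1.34% and 12.3% of all genes tested. The medians were 0.55 in mKO and 0.73 in flox. Csrp3 changed by 2.47 ± 0.61 in mKO and 2.93 ± 0.62 in flox, and the interaction was -0.45 ± 0.82 (adjusted p = 0.873). For Ankrd1 the interaction was -1.60 ± 0.53 (adjusted p = 0.176). The atrophy list had medians of -0.26 in mKO and -0.30 in flox. An interaction that misses the threshold does not show that the genotypes act alike. The 4 genes with a higher change in mKO were Myh13, the myosin of eye muscles (1.38 ± 0.29), Slc25a47, a mitochondrial carrier (0.87 ± 0.19), Rilp, a lysosomal trafficking protein (0.75 ± 0.16), and Fastkd1, a mitochondrial RNA protein (0.60 ± 0.10), with adjusted p of 0.038, 0.0452, 0.044 and 0.0223. Myh13 had 7.95, 5.38 and 6.6 CPM in mKO reloading, against 2.32, 3.66 and 4.57 CPM in mKO control, and was called there (0.91 ± 0.20, adjusted p = 0.0269, up to 0.105 without R1, C1 or C2).

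**Figure D3:**
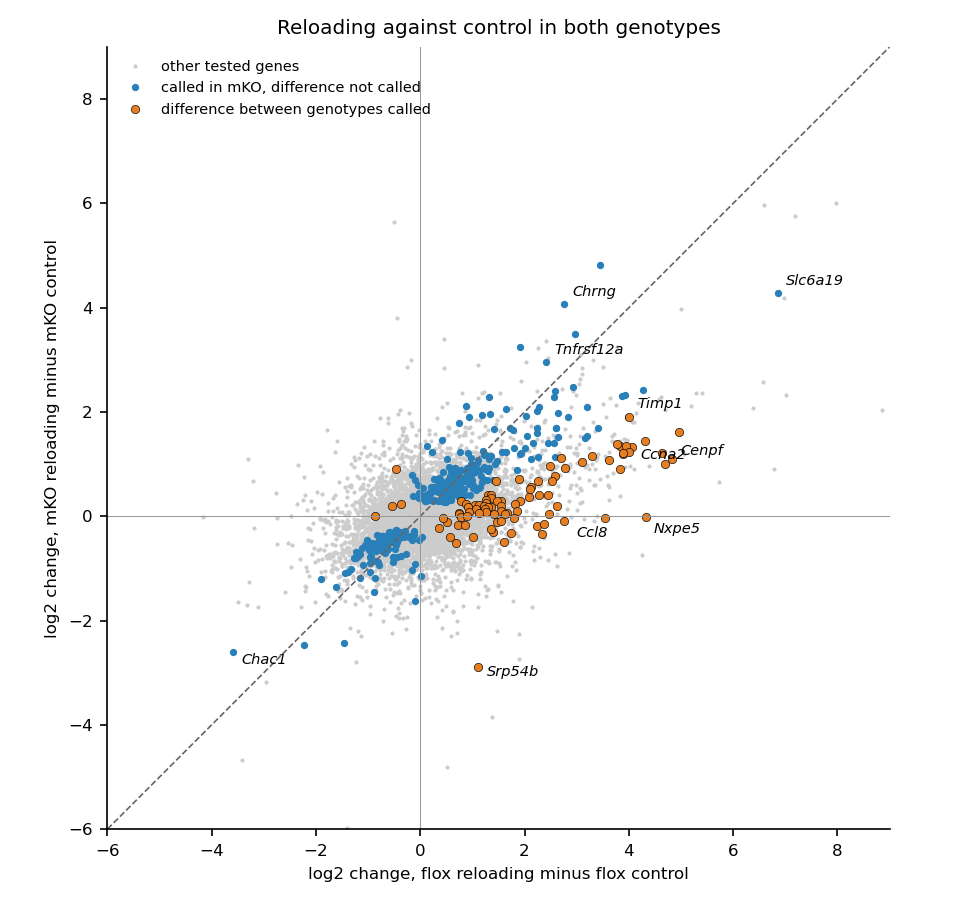
Log2 change after reloading in mKO (vertical axis) and flox (horizontal axis) for the 17833 genes tested, with the line of equal change dashed. The 93 genes with a called difference (orange) lie mostly right of the line near zero on the mKO axis, with medians of 0.20 in mKO and 1.6 in flox for the 89 lower ones. They were chosen by this difference, so their place off the line follows from the choice.

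**Figure D4:**
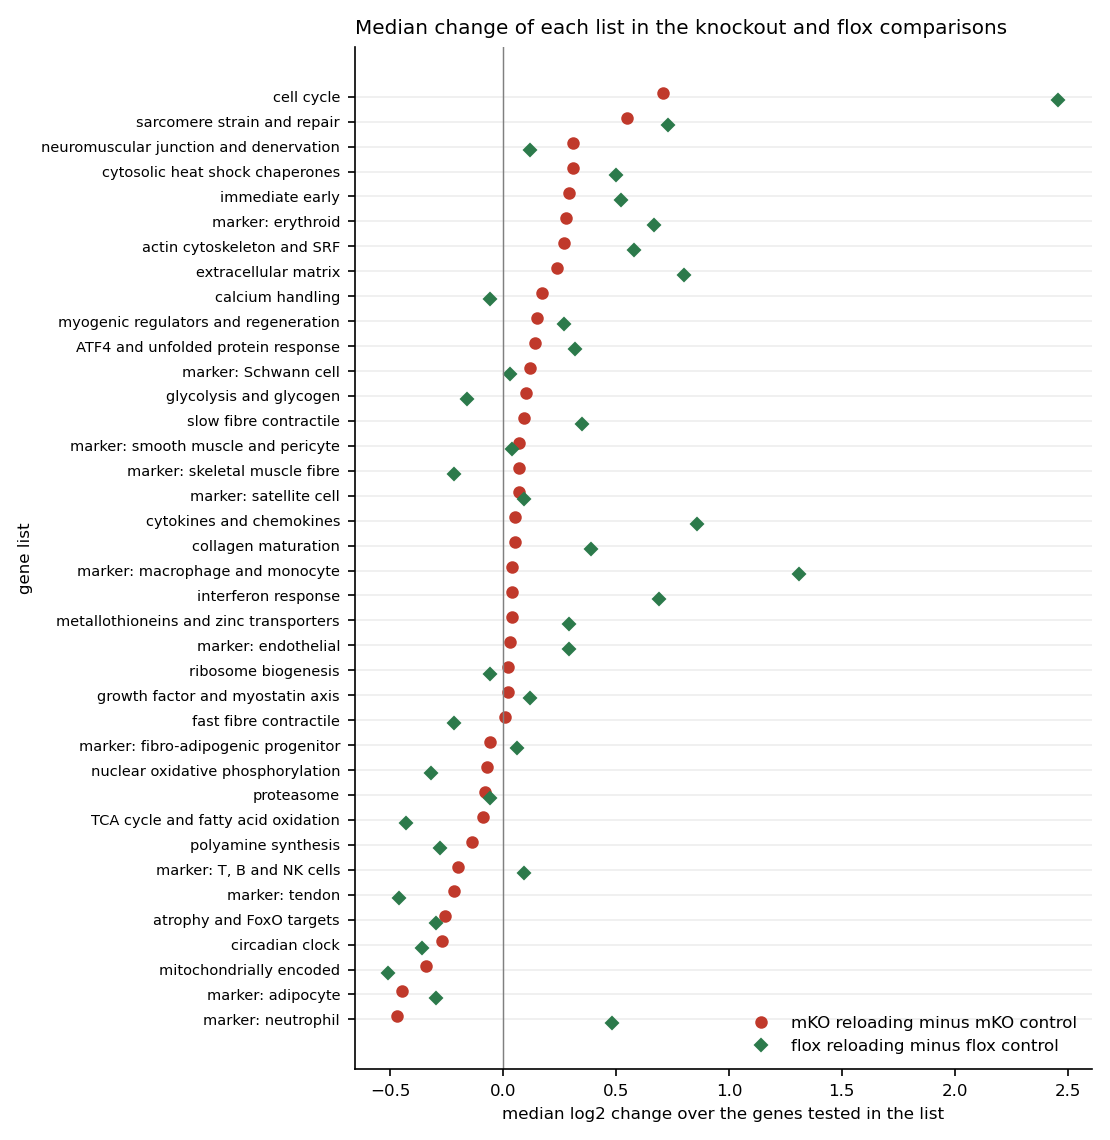
Median log2 change over the genes tested of each of 38 lists, for mKO (red circles, above) and flox (green diamonds, below). The cell cycle list reads 0.71 in mKO and 2.46 in flox, and the macrophage list 0.04 in mKO and 1.31 in flox.

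The reloaded knockout libraries had the widest spread of the 6 groups by 2 of 3 measures, by a small margin. The median SD of log2 CPM over genes was 0.184 in mKO reloading, against 0.156 to 0.174 in the other 5 groups, and the dispersion fitted to the group alone was 0.0237, against 0.014 to 0.0221. Genes that spanned more than 1 log2 unit were 13.2% of those tested in mKO reloading, 13.7% in mKO unloading and 11.5% to 12.9% in the other 4 groups. On the first principal component of the 6 libraries, with 29.6% of the variance, mKO reloading replicates 1, 2 and 3 lay at 22.6, 33.7 and 8.4, against -26.5, -16.6 and -21.6 for mKO control. Replicate 2 was the farthest from the controls and replicate 3 the nearest. Of the 239 higher genes replicate 2 was the highest in 172, with a median of 0.89 over the control mean, against 0.62 and 0.59 in replicates 1 and 3. Of the 150 lower genes it was the lowest in 119. It also got the lowest weight of all 18 libraries, 0.518, from limma's voom, against 0.747 to 1.54 in the others. Without it, 83 of the 86 genes called were among the 389.

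Genes that split the reloaded libraries included a kinase of the fibre and genes of the daily clock. Of 7896 genes that averaged 10 CPM or more in mKO reloading, 111 spanned more than 1 log2 unit there, and replicate 2 stood apart in 76 of them, 38 higher and 38 lower, against 23 for replicate 1 and 12 for replicate 3. Mylk4, a myosin light chain kinase, had 1908, 508 and 2652 CPM in mKO reloading, against 2640, 3166 and 2753 CPM in mKO control. Arntl, the clock activator Bmal1, had 6.4, 27.4 and 6.88 CPM, against 4.91, 5.99 and 9.95 CPM in mKO control, and Per2, a clock repressor, 18.4, 8.72 and 31.1 CPM, against 22.1, 34.4 and 19.7 CPM. High Arntl with low Per2 and Mylk4 recurred in mKO unloading replicate 2 (20.9, 9.81 and 1337 CPM) and in flox reloading replicates 1 and 2 (19.8 and 15.9, 12.1 and 12.1, 631 and 1025 CPM). The time of day of collection is not given in the labels, and its part in the results was not tested. Of 19 clock genes 1 was called, against 2.18% of all genes tested. This was Per1, with 35.4, 21.3 and 37.4 CPM in mKO reloading, against 52.9, 98 and 42 CPM in mKO control (-1.04 ± 0.26, adjusted p = 0.0481, up to 0.223 without R1, R2, R3, C1 or C2). Per1 was also lost in the fit of these 6 libraries alone (adjusted p = 0.136) and with limma's sample weights (0.13).

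Other genes split the reloaded libraries in other ways. Gm28438 had 2.72, 27.3 and 36.5 CPM in mKO reloading, against 2.55, 45.4 and 57.9 CPM in mKO control, low in replicate 1 of both. The mitochondrial mt-Co3, a cytochrome oxidase subunit, had 49.8, 10.1 and 33.8 CPM, against 43.4, 23 and 56.9 CPM in mKO control. Reads of mitochondrial genes can be shared with nuclear copies, so the value of mt-Co3 is uncertain. F830016B08Rik had 86.9, 19.3 and 74 CPM, against 60.6, 56.6 and 56 CPM in mKO control. Atf3, an early stress factor, had 13.8, 21.7 and 4.51 CPM in mKO reloading, against 1.5, 3.42 and 4.47 CPM in mKO control, and did not pass (2.09 ± 0.60, adjusted p = 0.0761). Pdk4, which restrains glucose oxidation, had 474, 663 and 155 CPM, against 313, 998 and 493 CPM in mKO control, and the controls spread widely too. Another split followed the replicate number. CT010467.1, Lars2 and Gm15564 were high in replicate 1 of all 6 groups, with 3315 to 4021, 819 to 1185 and 73.8 to 102 CPM, against 468 to 975, 162 to 282 and 11.3 to 22.7 CPM in replicates 2 and 3. Each group holds 1 library of each number, so this split does not coincide with reloading.

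**Figure D5:**
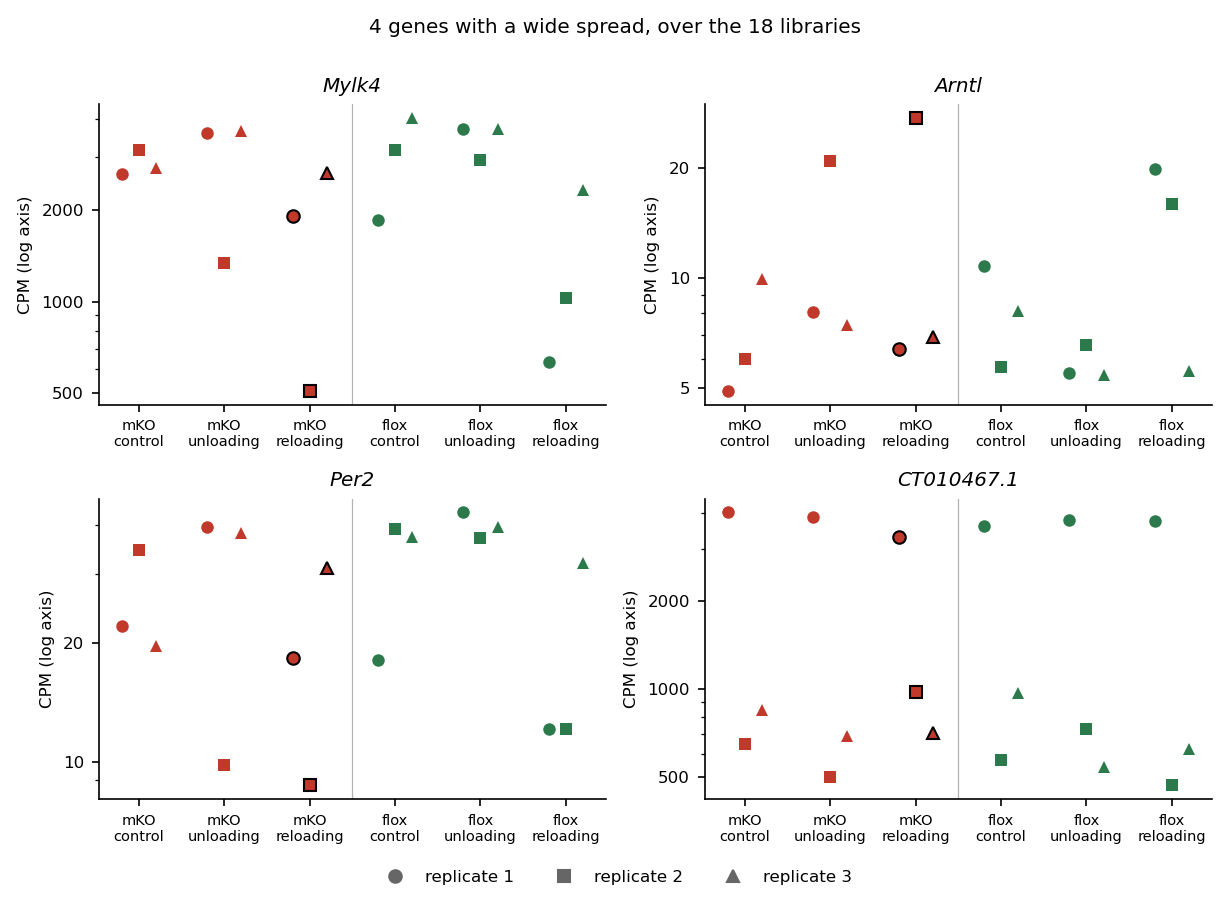
CPM of 4 genes, on log axes, in all 18 libraries, by group in the order control, unloading, reloading for mKO (red, left) and flox (green, right), with mKO reloading outlined and a symbol for each replicate number. Mylk4 is 508 CPM in replicate 2 of mKO reloading, and CT010467.1 is high in replicate 1 of every group.

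The authors' deposited table named for the knockout's reloading and control lists 30881 genes, 427 of them at an adjusted p under 0.05. Of these, 335 have a negative and 92 a positive log2 value in the authors' deposited table. Over 17833 genes, which do not count as replicates, the p-values of the authors' deposited table ranked with those of the interaction recomputed with DESeq2 at a Spearman rho of 0.9995, and with those of mKO reloading against mKO control at 0.1289. The signs in the authors' deposited table matched the interaction in 427 of 427 genes and the mKO comparison in 175. Its values were therefore read as the difference in change between genotypes, and were not used for the calls above.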

How the data were processed

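RNA of gastrocnemius from 18 libraries, 3 in each of 6 groups, was measured by RNA-seq. Per the file headers, the authors made the deposited counts with featureCounts 1.6.4 and annotation release 94, with no strand, pairing or multimapping option in the command. The submitters' processing notes name STAR 2.7.3a, featureCounts 2.0.3, DESeq2 and GRCm38.p6. Of the counts of 1 to 10, 65.0% were even, against 49.9% of those of at least 1000, so read mates may have been counted separately. A fit on halved counts was added after the data were seen. Separate deposited tables hold the authors' log2 fold changes and p-values, per the file headers, and the name of one gives the knockout's reloading and control, while its model and contrast are not given further in the sources used here.

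Counts were scaled by TMM and fitted in edgeR 4.0.16 (R 4.3.3) with 1 mean per group over all 18 libraries, after filterByExpr, with 12 residual degrees of freedom. Adjusted p-values are Benjamini-Hochberg over 17833 genes. Log2 CPM for spread used a prior count of 2. The interaction was the reloading minus control difference in mKO minus that in flox. Alternatives were RLE and total-count scaling, no filter, at least 10 counts over all libraries (added after the data were seen) or at least 1 CPM in 3 libraries, the replicate number as a block, the compared groups alone, DESeq2 1.42.0, limma 3.58.1 voom with sample weights, and leaving out each library. Exact intervals of count ratios cover counting error only, and reads without molecular identifiers are not independent molecules.

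Named genes were Zfp697, the 15 largest rises and falls with a mean of at least 1 CPM and ranges apart, the 10 smallest p, up to 6 called genes of each of 38 lists or its most abundant genes, the 6 largest interactions in each direction and the 10 genes of widest spread. Not all are printed. The members and lists were chosen with earlier results of these data known.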

Additional observations from a re-analysis of the deposited data

Results flagged for a closer look

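The change with reloading differed between mKO and flox muscle, by the interaction test in edgeR, for 15 named genes. The values are the log2 change in mKO minus that in flox, and mean CPM (n = 3) is given as reloading and control in mKO, then in flox. No explanation was tested. The 6 with the largest lower change and the 4 with a higher change in mKO were followed through the alternatives, and all 10 lost their call without flox reloading replicate 1, mKO reloading replicate 1 or flox control replicate 2 or 3.

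Cell cycle genes make up the largest group among them. Cenpf differed by -3.73, with 0.946 and 0.441 CPM in mKO and 4.81 and 0.168 CPM in flox. Ccnb1, the mitotic cyclin B1, differed by -3.67, with 0.479 and 0.237 CPM in mKO and 3.44 and 0.131 CPM in flox. For Ncapg the difference was -3.42, with 0.652 and 0.277 CPM in mKO and 2.61 and 0.103 CPM in flox. Ccna2 differed by -2.73 and Kif23 by -2.13. These genes rose more in flox than in mKO.

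Matrix, secreted and cytoskeletal genes also rose more in flox. Timp1 differed by -2.09, with 4.47 and 1.19 CPM in mKO and 11.1 and 0.691 CPM in flox. Ccl8 differed by -3.57, with 0.549 and 0.553 CPM in mKO and 2.23 and 0.188 CPM in flox. Nxpe5 differed by -4.33, with 0.437 and 0.446 CPM in mKO and 2.83 and 0.14 CPM in flox. Fstl1, a secreted glycoprotein, differed by -0.90, with 150 and 129 CPM in mKO and 254 and 117 CPM in flox. Tubb5 differed by -0.78, with 70.8 and 44.1 CPM in mKO and 121 and 44.1 CPM in flox. Srp54b, which belongs to none of these classes, differed by -4.01, with 1.34 and 9.95 CPM in mKO and 8.59 and 3.96 CPM in flox. It fell in mKO, and its flox change of 1.11 ± 0.50 was not called (adjusted p = 0.121). The flox SDs were wide, 5.13 CPM in reloading and 3.34 CPM in control. Srp54b shares near-identical copies with other loci, so its counts are uncertain.

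The change was higher in mKO for Myh13 (1.38), with 6.64 and 3.52 CPM in mKO and 4.06 and 5.6 CPM in flox. For Slc25a47 (0.87) the levels were 5.88 and 5.9 CPM in mKO and 4.23 and 7.75 CPM in flox. For Rilp (0.75) they were 37.5 and 32.6 CPM in mKO and 24.3 and 35.5 CPM in flox. For Fastkd1 (0.60) they were 23.6 and 20.1 CPM in mKO and 18.6 and 24 CPM in flox.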

How the results depend on the processing

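The 389 calls in mKO became 834 (504 higher, 330 lower) with DESeq2 and 136 (102 higher, 34 lower) in the fit of the compared groups alone. With 1 library left out they ran from 86 to 398 in all, 60 to 251 higher and 26 to 156 lower. The other alternatives gave 325 to 505 calls, apart from the fit with no low-count filter. That fit gave 1216 calls (678 higher, 538 lower) and 755 interaction calls (212 higher, 543 lower), but edgeR's prior degrees of freedom came out infinite there, against 6.0 in the fit reported, so a gene's own spread did not enter (the SE of Csrp3 was 0.10, against 0.61). Its counts are void as a check. A filter of at least 10 counts over all libraries, chosen after seeing the data, had 8.71 prior degrees of freedom and gave 346 calls (219 higher, 127 lower) and 88 interaction calls. Of 87 genes followed, 37 lost their call in the compared groups alone and 20 with sample weights, and no call turned its direction in any alternative run. Some list medians changed sign. Without mKO reloading replicate 2, that of nuclear oxidative phosphorylation went from -0.07 to 0.06. That of the TCA cycle and fat oxidation went from -0.09 to 0.04 there. With sample weights the macrophage median went from 0.04 to -0.07. The 93 interaction calls became 284 (2 higher in mKO, 282 lower) with total counts, which shifted the median interaction to -0.131, 158 (8 higher, 150 lower) with at least 1 CPM in 3 libraries, 428 (78 higher, 350 lower) with DESeq2 and 474 (106 higher, 368 lower) with sample weights. The compared groups alone gave 8 higher. With 1 library left out the interaction calls ran from 0 to 469, 0 to 153 higher and 0 to 316 lower. The spread among mKO reloading libraries was 0.202 with total counts. The causes of these shifts were not tested. With 3 libraries a group, the genes near the threshold depend on single libraries.

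With the replicate number as a block (replicate block), 505 genes were called in mKO and 143 in the interaction, 10 of them higher in mKO. Of the genes followed, Per1, Kif23 and Apoe lost their call (adjusted p = 0.0619, 0.0508 and 0.0537) and Postn and Chrna1 gained one (0.0387 and 0.0447). The numbers were not used as pairs because the labels give no pairing. Deviations of same-numbered mKO libraries correlated at 0.049, 0.014 and 0.001 across genes, and mKO reloading replicate 2 correlated best with mKO control replicate 3. These correlations run over all genes tested and cannot settle whether libraries were paired. Replicate 1 of both groups stood apart on the second principal component of these 6 libraries (20.2% of the variance), at 27.3 in mKO reloading and 21.7 in mKO control, against -17.9 and -23.7 for replicate 2 and 0.3 and -7.6 for replicate 3.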
